A study of Homo sapiens with 70 samples.

Results

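The 10 genes described here, HSPA1A, HSPA1B, DNAJB1, HSPH1, HSP90AA1, HSPA8, HSPD1, HSPE1, HSPB1 and BAG3, encode heat-inducible or related constitutive molecular chaperones and their partners. They were taken by gene symbol from 6 tables of drug against vehicle comparisons, on the 1 transcript that the authors marked as representative for each symbol. They are 10 of the 20090 genes in those tables, and all 10 had a mean above 2 CPM (reads per 1e6 counted, the unit of the tables), so no member was lost to a filter on low values. Of the 10, 8 encode cytosolic or nuclear proteins. HSPD1 and HSPE1 encode the chaperonin and co-chaperonin of the mitochondrial matrix, so the name "cytosolic" does not cover them.

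Polyadenylated RNA was sequenced from the human hepatocellular carcinoma lines Hep3B and Huh7 after 24 h with DMSO (the vehicle), 5 µM GW3965, 2 µM sorafenib or both drugs at those doses. GW3965 activates the liver X receptors (LXR), which switch on sterol efflux and fatty acid synthesis, and sorafenib is a multikinase inhibitor used against liver cancer that blocks RAF kinases and receptors of growth factors. Each Hep3B group held 9 libraries, and the Huh7 groups held 8 (DMSO and labelled GW3965) or 9 (labelled sorafenib and both drugs), 70 in all. Each drug group is set against the DMSO group of its own line, so the 3 comparisons of a line share their DMSO libraries.

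Chaperones of the HSP70 class bind exposed hydrophobic stretches of client proteins in cycles of ATP hydrolysis that J-domain proteins start and nucleotide exchange factors end. Many clients are then passed to HSP90, which completes the folding of kinases and steroid receptors, while small heat shock proteins hold unfolded proteins without using ATP. Transcription of the inducible members is driven by HSF1, which is held inactive by chaperones and, once released, binds inverted repeats of a short GAA unit, the heat shock element. Hepatocytes make large amounts of secreted protein, and liver cancers often carry high levels of HSP70 and HSP90.

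The files used here hold the authors' comparisons and no values of single libraries, so depth per library is unknown and no library could be examined or left out. Nothing in the labels ties libraries to separate cultures, and every p-value below may therefore reflect technical spread alone. All 7 hepatocyte markers examined were at 30.3 CPM or more in DMSO in both lines. Markers of immune, endothelial and stellate cells were at 2 CPM or more for 2 of 7 in Hep3B (CD14 and COL1A2, at most 3.53 CPM) and for 1 of 7 in Huh7 (COL1A2, 62.9 CPM). PTPRC, CD3E, PECAM1, VWF and DCN were under 1 CPM in both. Drug-response genes went with the labels in Hep3B and against them in the Huh7 groups given 1 drug. ABCG1, an LXR target, had log2 fold changes of 0.75 in the Huh7 group labelled GW3965 and 3.82 in the one labelled sorafenib in the authors' deposited table of each. DUSP6, a product of the ERK pathway that sorafenib blocks, had log2 fold changes of -1.70 and -0.02 in the same order in the authors' deposited tables. In Hep3B, ABCG1 stood at 5.99 with GW3965 and DUSP6 at -2.40 with sorafenib (log2 fold changes in the authors' deposited tables). The Huh7 groups given 1 drug are therefore called "labelled GW3965" and "labelled sorafenib" throughout, and which drug each received was not tested.

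The sequence just upstream of the start sites shows which members carry a heat shock element-like repeat. The 250 bases before each start were taken from RefSeq on GRCh38.p14, whereas the submitters' processing notes name hg19. These windows were searched for GAANNTTC (units head to head) and TTCNNGAA (units tail to tail). Both are palindromes and so were read on both strands at once, and they can overlap each other. Of all 35116 human windows of that length, 5.78% held the first, 6.62% the second and 11.6% either. The 10 genes had 14 windows, of which 7, from 7 genes, held at least 1 pair. The repeats lay close to the start in HSPA1A, HSPA1B, HSPA8 and HSP90AA1, and in 1 window of DNAJB1. Windows of the first 4 are shown because these genes carry the largest falls with both drugs in Hep3B apart from HSPE1. The window of HSPE1 held no pair. Capitals mark the matched letters, each run is the 150 bases directly before the start on the gene's own strand, and for HSP90AA1 the start is that of a shorter transcript than the representative one.
HSPA1A, chr6:31815393-31815542, plus strand: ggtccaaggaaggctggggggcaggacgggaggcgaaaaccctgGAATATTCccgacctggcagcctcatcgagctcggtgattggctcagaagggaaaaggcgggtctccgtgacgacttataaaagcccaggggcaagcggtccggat
HSPA1B, chr6:31827588-31827737, plus strand: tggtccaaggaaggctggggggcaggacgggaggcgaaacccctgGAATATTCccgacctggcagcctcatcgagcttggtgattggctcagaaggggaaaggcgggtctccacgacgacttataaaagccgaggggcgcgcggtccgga
HSPA8, chr11:123062137-123062286, minus strand: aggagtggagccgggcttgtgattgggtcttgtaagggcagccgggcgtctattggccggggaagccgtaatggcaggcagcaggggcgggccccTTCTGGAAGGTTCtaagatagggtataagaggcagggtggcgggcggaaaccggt
HSP90AA1, chr14:102087045-102087194, minus strand: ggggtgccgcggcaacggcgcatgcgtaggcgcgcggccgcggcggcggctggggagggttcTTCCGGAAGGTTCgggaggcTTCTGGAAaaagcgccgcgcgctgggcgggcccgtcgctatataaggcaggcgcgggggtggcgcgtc

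HSPA1A and HSPA1B share the same pair of units, 106 and 105 bases before their starts, and their 250-base windows were identical at 94.4% of 249 aligned positions. HSPA8 held 4 pairs, the nearest 50 bases before the start. HSP90AA1 held 3 before the start shown, the nearest 68 bases before it, and its other window held no pair. DNAJB1 had 2 pairs in 1 of its 3 windows, 77 and 47 bases before that start. HSPB1 is shown because it carries a pair as well, 182 bases before the start, and was called in none of the 6 comparisons with DMSO.
HSPB1, chr7:76302473-76302672, plus strand: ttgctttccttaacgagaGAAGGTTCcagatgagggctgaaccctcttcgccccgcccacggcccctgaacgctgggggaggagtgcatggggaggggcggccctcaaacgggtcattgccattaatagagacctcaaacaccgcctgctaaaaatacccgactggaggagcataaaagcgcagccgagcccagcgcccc
HSPD1 and HSPE1 are transcribed away from each other on chromosome 2, and their values part below, so the 104 bases between their nearest starts are shown, with no pair in them. A cluster of 3 overlapping pairs lies further into HSPD1, before its other start.
HSPE1 to HSPD1, chr2:197500275-197500378, plus strand: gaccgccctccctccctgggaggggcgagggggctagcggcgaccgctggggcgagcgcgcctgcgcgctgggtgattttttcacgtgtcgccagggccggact
HSPD1 stretch, chr2:197500066-197500090, minus strand: gcattTTCTGGAAAGTTCTGGAAcc
No pair was found in the windows of BAG3, HSPE1 and HSPH1, which says only that these letters are not in these windows.

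Sorafenib in Hep3B, and both drugs in either line, lowered most of the 10 genes, whereas GW3965 in Hep3B raised a few of them slightly. A gene is counted as called when the authors' edgeR test gave a false discovery rate (FDR) under 0.05 over all transcripts of its table. With GW3965 in Hep3B, 3 of 10 members rose (DNAJB1, HSPH1 and BAG3) and 0 fell in the authors' deposited table, against 11.2% of genes at 2 CPM or more called, 7.4% higher and 3.82% lower. With sorafenib in Hep3B, 8 of 10 fell and 0 rose in the authors' deposited table, against 51.5% of genes called, 27.9% lower and 23.6% higher. HSPD1 and HSPB1 were the members not called. These are bulk samples, so fewer cells of a type and less RNA per cell cannot be told apart.

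With both drugs in Hep3B, the same 8 genes were called lower and 0 higher in the authors' deposited table, against a background of 72.1% called, 35.4% lower and 36.7% higher. The member median was -0.93 (log2) beside 0.01 over all genes at 2 CPM or more, computed from the authors' deposited table. With sorafenib alone the medians were -0.87 and -0.03, and with GW3965 they were 0.12 and 0.00, from the authors' deposited tables. Of the 7 hepatocyte markers, 6 also fell with both drugs in each line in the authors' deposited tables, among them TTR (log2 fold change -1.89 in Hep3B and -1.59 in Huh7). Beside them, 35.4% of all genes were lower in Hep3B and 26.1% in Huh7. The part of these markers in the fall of the heat shock genes was not tested.

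In Huh7 with both drugs, 9 of 10 members fell and 0 rose in the authors' deposited table, against 61.7% of genes called, 26.1% lower and 35.5% higher. HSPB1 was the member not called. In the Huh7 group labelled GW3965, 6 of 10 fell and 0 rose in the authors' deposited table, against 31.4% of genes called, 17.8% lower and 13.6% higher. In the group labelled sorafenib, 0 of 10 passed the authors' edgeR test, 3 had an unadjusted p under 0.05, and 3.32% of genes were called, 2% higher and 1.32% lower, in the authors' deposited table. Member medians in Huh7 were -0.40 with both drugs, -0.42 in the group labelled GW3965 and 0.10 in the group labelled sorafenib, beside 0.07, -0.04 and -0.03 over all genes, from the authors' deposited tables.

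**Figure D1:**
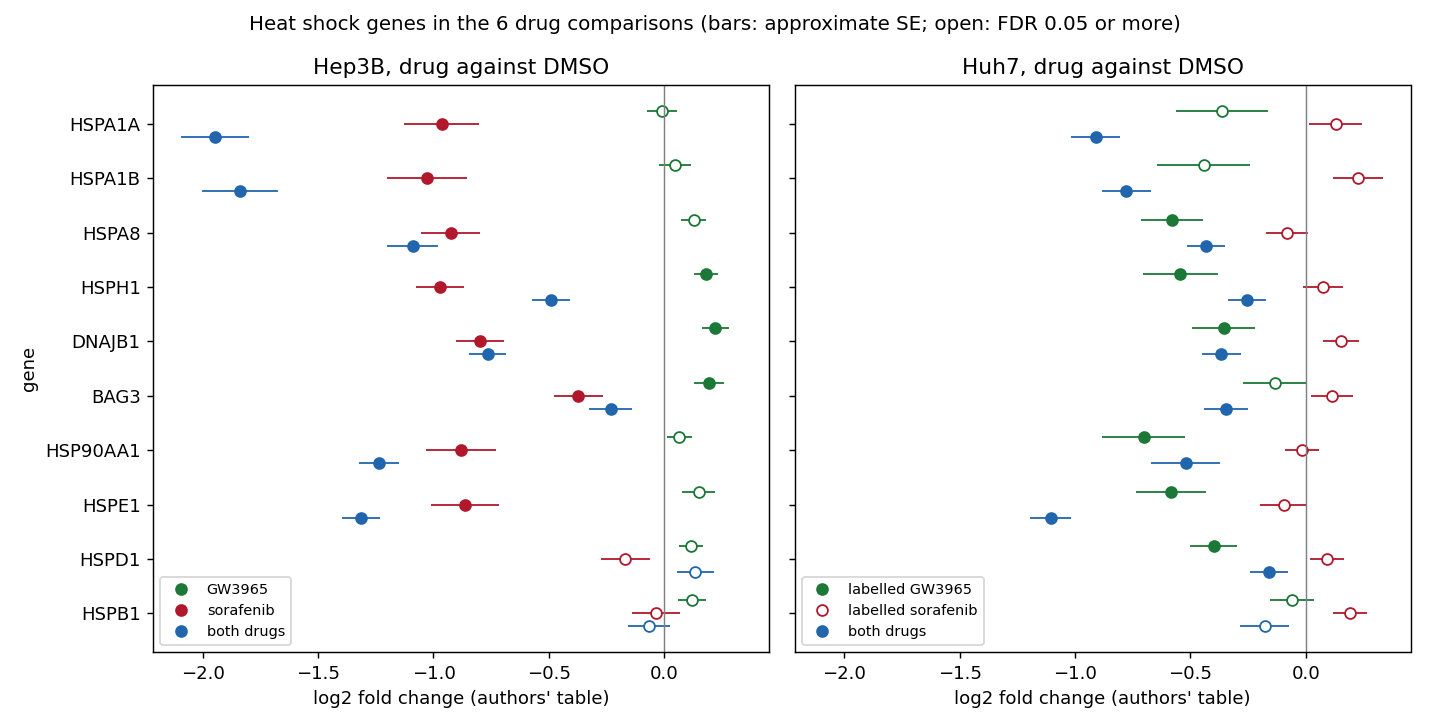
Log2 fold change against DMSO (x axis) of the 10 heat shock genes (y axis) in Hep3B (left) and Huh7 (right), from the authors' deposited tables, with 1 point per gene and drug group and bars for the approximate standard error. Filled points passed an FDR of 0.05 and open points did not; HSPA1A and HSPA1B with both drugs in Hep3B lie furthest left, at -1.95 and -1.84, and all points of the Huh7 group labelled sorafenib are open.

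HSPA1A and HSPA1B encode nearly identical stress-inducible HSP70 proteins and had the deepest falls of the 10 with both drugs in Hep3B. Group means in CPM were derived from the mean and fold change of each table. They are approximate across groups, because the DMSO level that the tables imply differs between them by up to 0.08 (log2) in Hep3B and by 0.05 in Huh7. In Hep3B, HSPA1A stood at 24.4 CPM in DMSO, 23.1 with GW3965, 12.7 with sorafenib and 6.33 with both drugs, derived from the authors' deposited tables. GW3965 lay close to DMSO (23.2 CPM on the scale of the GW3965 table), sorafenib below both and the 2 drugs together lowest. The log2 fold changes of HSPA1A were -0.01 with GW3965 (approximate SE 0.06, FDR 1), -0.96 with sorafenib (SE 0.16, FDR 3.85e-08) and -1.95 with both (SE 0.15, FDR 3.23e-38) in the authors' deposited tables. These standard errors are approximate: each was back-calculated from the fold change and its p-value under a normal law, and is not taken below the median of genes of like expression.

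HSPA1B in Hep3B stood at 17.1 CPM in DMSO, 16.9 with GW3965, 8.53 with sorafenib and 4.78 with both drugs, derived from the authors' deposited tables. On the scale of the GW3965 table its DMSO level was 16.3 CPM, and its log2 fold change there was 0.05 (SE 0.07, FDR 1) in the authors' deposited table. Its log2 fold change given both drugs was -1.84 (SE 0.16, FDR 4.58e-28) in the authors' deposited table, or 27.9% of the DMSO level, and HSPA1A was at 26.0%. The transcripts of HSPA1A and HSPA1B were identical at 96.1% of 2398 aligned positions in GENCODE release 29, so reads may be split between them and the value of either one alone is uncertain. Their log2 fold changes differed by at most 0.13 in any of the 6 tables.

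In Huh7, HSPA1A stood at 28.0 CPM in DMSO, 21.9 in the group labelled GW3965, 30.6 in the group labelled sorafenib and 14.7 with both drugs, derived from the authors' deposited tables. HSPA1B followed the same order at 26.7, 19.8, 31.3 and 15.4 CPM, derived from the authors' deposited tables. Only the group given both drugs differed from DMSO past the threshold. There, HSPA1A fell by 0.91 (log2, SE 0.11, FDR 2.38e-16) and HSPA1B fell by 0.78 (SE 0.11, FDR 2.97e-12) in the authors' deposited table. In the group labelled GW3965 they stood at -0.36 and -0.44 with FDR 0.197 and 0.104, and approximate SEs of 0.20, in the authors' deposited table.

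HSPA8, the constitutive HSP70 that also strips clathrin from vesicles, is far more abundant: per kilobase of transcript its DMSO level was 269 CPM in Hep3B, against 9.81 for HSPA1A. Its group levels in Hep3B were 662, 685, 349 and 311 CPM for DMSO, GW3965, sorafenib and both drugs, derived from the authors' deposited tables. The drop lay between the groups without and with sorafenib. HSPA8 fell by 0.93 with sorafenib (log2, SE 0.13, FDR 5.29e-12) and fell by 1.09 with both (SE 0.11, FDR 2.12e-22) in the authors' deposited tables. In Huh7 its levels were 1229 CPM in DMSO, 822 labelled GW3965, 1167 labelled sorafenib and 892 with both, derived from the authors' deposited tables. HSPA8 fell in the group labelled GW3965 (log2 fold change -0.58, SE 0.13, FDR 0.000243) and with both drugs (-0.43, SE 0.08, FDR 1.16e-06) in the authors' deposited tables. The transcripts of HSPA1A and HSPA8 were identical at 71.8% of 2408 aligned positions.

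**Figure D2:**
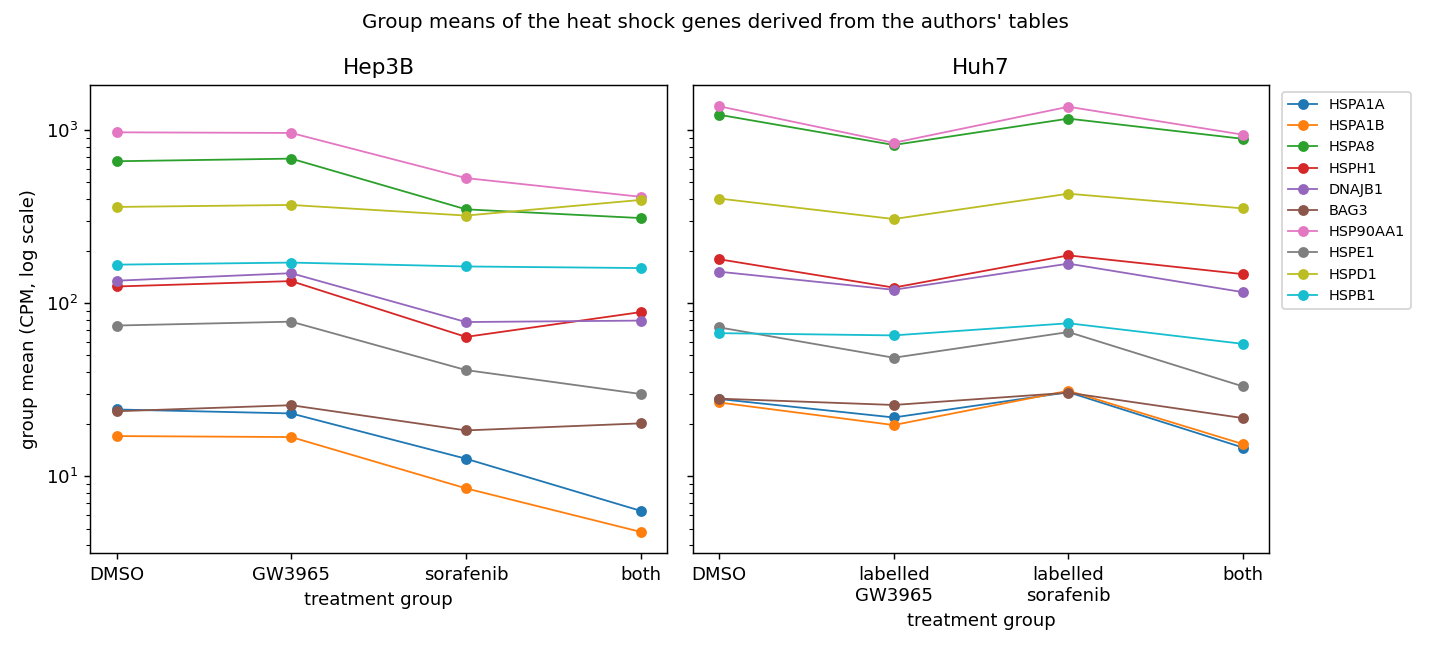
Group mean of each heat shock gene (y axis, CPM on a log scale) in the 4 treatment groups (x axis) of Hep3B (left) and Huh7 (right), derived from the authors' deposited tables, with 1 colour per gene and lines that only guide the eye between groups. HSPA1A in Hep3B runs from 24.4 CPM in DMSO to 6.33 with both drugs, while HSPB1 stays between 159.9 and 172 CPM.

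Partners of HSP70 are among the 10 genes, and HSPH1 departed from the order seen for HSPA1A. HSPH1 encodes HSP110, a distant relative of HSP70 that acts as its nucleotide exchange factor. Its Hep3B levels were 125 CPM in DMSO, 134 with GW3965, 64.0 with sorafenib and 89.0 with both drugs, derived from the authors' deposited tables. Both drugs together thus left HSPH1 above sorafenib alone. HSPH1 rose by 0.18 with GW3965 (log2, SE 0.05, FDR 0.0029), fell by 0.97 with sorafenib (SE 0.11, FDR 1.41e-18) and fell by 0.49 with both (SE 0.08, FDR 2.33e-11) in the authors' deposited tables. In Huh7 its levels were 179.8, 123, 189 and 147 CPM for DMSO, labelled GW3965, labelled sorafenib and both, derived from the authors' deposited tables. HSPH1 fell by 0.54 in the group labelled GW3965 (SE 0.16, FDR 0.00641) and fell by 0.26 with both drugs (SE 0.08, FDR 0.00343) in the authors' deposited tables.

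DNAJB1, the J-domain protein that starts the ATP cycle of stress-inducible HSP70, stood at 135 CPM in DMSO, 149 with GW3965, 78.0 with sorafenib and 79.5 with both drugs in Hep3B, derived from the authors' deposited tables. The groups that received sorafenib lay close to each other and below the others. DNAJB1 rose by 0.22 with GW3965 (log2, SE 0.06, FDR 0.00509), fell by 0.80 with sorafenib (SE 0.10, FDR 1.11e-13) and fell by 0.77 with both (SE 0.08, FDR 2.04e-22) in the authors' deposited tables. In Huh7 it fell by 0.36 in the group labelled GW3965 (SE 0.14, FDR 0.0456) and fell by 0.37 with both drugs (SE 0.08, FDR 2.09e-06) in the authors' deposited tables. Exons of DNAJB1 overlap those of TECR on the other strand in GENCODE release 29, and no source used here gives whether strand was counted. TECR, an enzyme of fatty acid elongation, stood at -0.62 with sorafenib and -0.59 with both drugs in Hep3B, and at 0.05 labelled GW3965 and -0.41 with both drugs in Huh7 (log2 fold changes in the authors' deposited tables). How far shared reads enter either gene was not tested.

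BAG3 links HSP70 to small heat shock proteins and to selective autophagy, and its changes were small. It stood at 23.8 CPM in DMSO, 25.8 with GW3965, 18.4 with sorafenib and 20.3 with both drugs in Hep3B, derived from the authors' deposited tables. BAG3 rose by 0.19 with GW3965 (log2, SE 0.07, FDR 0.0429), fell by 0.37 with sorafenib (SE 0.11, FDR 0.00213) and fell by 0.23 with both (SE 0.09, FDR 0.00344) in the authors' deposited tables. In Huh7, where DMSO was at 28.1 CPM, BAG3 fell with both drugs to 21.7 CPM (log2 fold change -0.35, SE 0.09, FDR 0.000215) in the authors' deposited table.

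HSP90AA1 encodes the inducible cytosolic HSP90 and had the highest CPM of the 10 in both lines. In Hep3B it stood at 973 CPM in DMSO, 965 with GW3965, 529 with sorafenib and 413 with both drugs, derived from the authors' deposited tables. On the scale of the GW3965 table DMSO was at 921 CPM, and the log2 fold change was 0.07 (SE 0.05, FDR 0.58) in the authors' deposited table. As with HSPA8, the groups without sorafenib lay together and above the others. HSP90AA1 fell by 0.88 with sorafenib (log2, SE 0.15, FDR 6.84e-08) and fell by 1.24 with both (SE 0.09, FDR 7.44e-45) in the authors' deposited tables. In Huh7 the order was 1377 CPM in DMSO, 846 labelled GW3965, 1367 labelled sorafenib and 942 with both drugs, derived from the authors' deposited tables. Its log2 fold change was -0.70 in the group labelled GW3965 (SE 0.18, FDR 0.00106) and -0.52 with both drugs (SE 0.15, FDR 0.00173) in the authors' deposited tables. HSP90AB1, the constitutive form, had smaller log2 fold changes of -0.61 with sorafenib and -0.47 with both drugs in Hep3B, and of -0.39 in the Huh7 group labelled GW3965, in the authors' deposited tables. HSP90AB1 did not pass in Huh7 given both drugs, at -0.16 (log2, FDR 0.0811) in the authors' deposited table.

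HSPD1 and HSPE1 encode HSP60 and HSP10, the ring and the lid of the mitochondrial chaperonin, and their values parted with both drugs. In Hep3B, HSPE1 stood at 74.4 CPM in DMSO, 78.4 with GW3965, 41.2 with sorafenib and 29.9 with both drugs, derived from the authors' deposited tables. HSPD1 stood at 361, 370.2, 321 and 396 CPM in the same groups, derived from the authors' deposited tables. HSPE1 was thus lowest with both drugs. HSPD1 with both drugs lay near its value with GW3965 (log2 fold changes 0.13 and 0.12 in the authors' deposited tables). HSPE1 fell by 0.86 with sorafenib (log2, SE 0.15, FDR 6.86e-08) and fell by 1.31 with both (SE 0.08, FDR 7.8e-55) in the authors' deposited tables. HSPD1 stood at -0.17 (SE 0.11, FDR 0.0928) and 0.13 (SE 0.08, FDR 0.0616) in the same authors' deposited tables and was not called.

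In Huh7, HSPE1 was at 72.7 CPM in DMSO, 48.5 labelled GW3965, 68.2 labelled sorafenib and 33.1 with both drugs, derived from the authors' deposited tables. HSPD1 was at 403 CPM in DMSO, 307 labelled GW3965, 429.8 labelled sorafenib and 353 with both, derived from the authors' deposited tables. In the group labelled GW3965 HSPE1 fell by 0.58 (log2, FDR 0.00131) and HSPD1 fell by 0.40 (FDR 0.000141), in the authors' deposited table. Given both drugs, HSPE1 fell by 1.11 (FDR 8.26e-34) and HSPD1 fell by 0.16 (FDR 0.041) in the authors' deposited table. Taken as log2 fold change of HSPE1 minus that of HSPD1, the gap was -1.45 in Hep3B and -0.95 in Huh7 with both drugs, against -0.69 with sorafenib in Hep3B and between -0.19 and 0.03 in the other 3 tables, computed from the authors' deposited tables and not tested.

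The 2 genes also differ in transcript length. HSPE1 has a transcript of 950 bases and HSPD1 one of 2299. Among genes at 2 CPM or more with both drugs in Hep3B, 43.5% of the 604 with transcripts of at most 1000 bases were called lower in the authors' deposited table, against 35.2% of the 10603 longer ones. The corresponding shares in Huh7 were 37.2% of 605 and 25.6% of 10467 in the authors' deposited table. The median log2 fold changes of short and longer genes were -0.11 and 0.01 in Hep3B and -0.10 and 0.07 in Huh7, from the authors' deposited tables. The order was the reverse with sorafenib in Hep3B, where 19.8% of short and 28.5% of longer genes were lower and HSPE1 fell as well, in the authors' deposited table. It was the reverse in the Huh7 group labelled GW3965 too, at 12.4% and 18.3%, in the authors' deposited table. HSPB1, whose transcript is 909 bases, was called in none of these tables. The part of length in the values of HSPE1 was not tested. Exons of HSPD1 and HSPE1 also overlap on opposite strands in GENCODE release 29.

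HSPB1, the small heat shock protein HSP27, was called in none of the 6 comparisons with DMSO. Its Hep3B levels were 167 CPM in DMSO, 172 with GW3965, 163 with sorafenib and 159.9 with both drugs, derived from the authors' deposited tables. In Huh7 it stood at 67.3 CPM in DMSO, 65.3 labelled GW3965, 76.7 labelled sorafenib and 58.3 with both, derived from the authors' deposited tables. HSPB1 was the only member with a Hep3B level well above that in Huh7 (a comparison of lines that was not tested). Its log2 fold changes ran from -0.18 with both drugs in Huh7 (95% interval -0.39 to 0.03, FDR 0.183) to 0.19 in the Huh7 group labelled sorafenib (0.04 to 0.33, FDR 0.211) in the authors' deposited tables. With both drugs in Hep3B the interval was -0.24 to 0.11 around -0.07. All 3 intervals are approximate and were computed from the back-calculated standard errors, which the authors did not give.

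The next question was whether the second drug altered the fall seen with 1 drug. Differences between 2 tables were examined with an approximate normal test on their log2 fold changes, adjusted by the Benjamini-Hochberg method over all genes at 2 CPM or more. Tables of a line share DMSO libraries, which this test counts in both. Adding GW3965 to sorafenib in Hep3B lowered HSPA1A further (log2 difference -0.98, SE 0.22, adjusted p 0.000125), computed from the authors' deposited tables. The differences were -0.81 for HSPA1B (SE 0.24, adjusted p 0.00428) and -0.45 for HSPE1 (SE 0.17, adjusted p 0.0292), computed from the authors' deposited tables. HSPH1 went the other way, with a difference of 0.48 (SE 0.13, adjusted p 0.00235), computed from the authors' deposited tables. In all, 3 of 10 members were lower and 1 higher, where 31.1% of all genes were called, 14.5% lower and 16.6% higher. For the other 6 the approximate test gave no call, as for DNAJB1 (difference 0.03, 95% interval -0.23 to 0.29) and HSPA8 (-0.16, interval -0.49 to 0.16), computed from the authors' deposited tables.

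Against GW3965 alone in Hep3B, both drugs lowered 8 of 10 members and raised 0, where the approximate test called 63.8% of all genes, 33.2% lower and 30.7% higher. HSPD1 (difference 0.02) and HSPB1 (-0.18) were not called (log2, computed from the authors' deposited tables). In Huh7, both drugs against the group labelled GW3965 gave 2 of 10 lower and 0 higher, where 30% of genes were called, 9.61% lower and 20.4% higher. HSPE1 differed by -0.52 (SE 0.18, adjusted p 0.0137) and HSPA1A by -0.55 (SE 0.22, adjusted p 0.0495), computed from the authors' deposited tables. HSPA1A lies at the edge of the threshold and is lost under 3 of the alternative settings. Against the Huh7 group labelled sorafenib, both drugs gave lower values for 10 of 10 members, where 47.1% of genes were called, 18% lower and 29.1% higher. The differences furthest from 0 were -1.04 for HSPA1A and -1.01 for HSPE1 (log2, computed from the authors' deposited tables).

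Adding up the values of the groups given 1 drug gives a reference that is the same whichever Huh7 label belongs to which drug. For HSPA1A the sum was -0.97 in Hep3B and -0.23 in Huh7, against measured values with both drugs of -1.95 and -0.91 (log2, from the authors' deposited tables). HSPE1 was also below its sums, -1.31 against -0.71 in Hep3B and -1.11 against -0.68 in Huh7, from the authors' deposited tables. HSPH1 was above its sums, -0.49 against -0.79 in Hep3B and -0.26 against -0.47 in Huh7, from the authors' deposited tables. The value with both drugs minus the sum was -0.42 for HSP90AA1 and -0.29 for HSPA8 in Hep3B, and 0.20 and 0.23 in Huh7 (log2, computed from the authors' deposited tables). No test was made of these sums, which count the shared DMSO libraries more than once.

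With both drugs, the fall of 5 members was deeper in Hep3B than in Huh7, and HSPD1 was higher in Hep3B, where the approximate test called 44% of all genes, 26.3% lower and 17.7% higher in Hep3B. The difference (Hep3B minus Huh7, log2) was -1.06 for HSPA1B (SE 0.20, adjusted p 6.26e-07) and -1.04 for HSPA1A (SE 0.18, adjusted p 1.74e-07), computed from the authors' deposited tables. Smaller differences were found for HSP90AA1 (-0.72, adjusted p 0.000198), HSPA8 (-0.66, adjusted p 1.34e-05) and DNAJB1 (-0.40, adjusted p 0.00217), computed from the authors' deposited tables. HSPD1 differed by 0.29 (adjusted p 0.0279), computed from the authors' deposited tables. HSPE1 fell in both lines, with a difference of -0.21 and a 95% interval of -0.45 to 0.03, computed from the authors' deposited tables. The 2 lines share no libraries, and the median difference over all genes was -0.05.

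**Figure D3:**
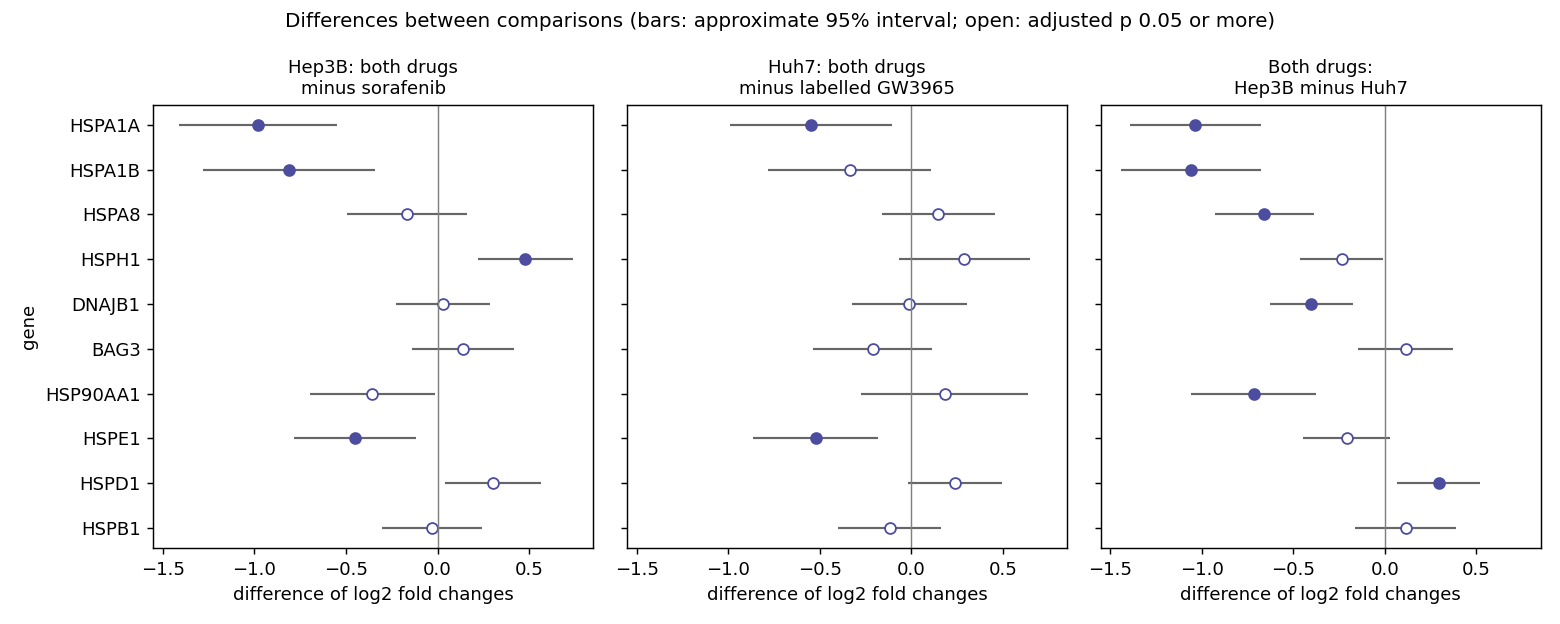
Difference of log2 fold changes (x axis) for each heat shock gene (y axis) between both drugs and sorafenib in Hep3B (left), both drugs and the group labelled GW3965 in Huh7 (middle), and Hep3B and Huh7 with both drugs (right), with approximate 95% intervals. Filled points had an adjusted p under 0.05; HSPA1A is filled in all 3 panels and HSPH1 is the 1 filled point right of 0 in the left panel, at 0.48.

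Because the Huh7 labels are in doubt, the groups given 1 drug were compared between lines both ways. Hep3B with sorafenib against Huh7 labelled GW3965 gave 0 of 10 calls by the approximate test, with 4 at an unadjusted p under 0.05, where 19.4% of genes were called, 9.72% lower and 9.64% higher. The nearest to the threshold was DNAJB1, with a difference of -0.44 and an adjusted p of 0.0516, computed from the authors' deposited tables. Hep3B with GW3965 against Huh7 labelled sorafenib also gave 0 of 10 calls by the approximate test, with 1 at an unadjusted p under 0.05, where 1.73% of genes were called, 0.22% lower and 1.51% higher. By the labels as written, sorafenib gave 8 of 10 members lower in Hep3B than in Huh7, where 35.9% of genes were called, 18.2% lower and 17.7% higher. GW3965 by the labels gave 6 of 10 higher in Hep3B, where 24.8% of genes were called, 14.7% higher and 10.1% lower.

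Other genes of the heat shock and chaperone network give the setting of these falls. HSF1, the transcription factor, rose by 0.37 with sorafenib (log2, FDR 4.83e-05) and by 0.69 with both drugs (FDR 6.55e-24) in Hep3B in the authors' deposited tables. In Huh7 with both drugs HSF1 rose by 0.55 (FDR 4.48e-13) in the authors' deposited table. In the Huh7 group labelled GW3965, where 6 of the 10 genes fell, HSF1 stood at 0.07 and was not called (FDR 0.65) in the authors' deposited table. HSF2, a relative active in development, rose by 0.25 with both drugs in Hep3B at the edge of the threshold (FDR 0.0498) in the authors' deposited table and passed in no other. Of the HSP90 form and co-chaperones, 11 of 13 fell and 2 rose with both drugs in Hep3B, and 8 fell and 0 rose in Huh7, in the authors' deposited tables. Over all genes, 35.4% were lower and 36.7% higher in Hep3B with both drugs, and 26.1% and 35.5% in Huh7. With sorafenib in Hep3B, 11 of 13 fell, and in the Huh7 group labelled GW3965, 12 of 13 fell, with 0 higher in both of the authors' deposited tables, beside 27.9% and 17.8% of all genes lower. CHORDC1, an HSP90 co-chaperone, had log2 fold changes of -1.14 with sorafenib and -0.90 with both drugs in Hep3B, and of -0.68 labelled GW3965 and -0.75 with both in Huh7, in the authors' deposited tables.

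DNAJA1, a J-domain partner of HSPA8, stood at -1.03 with sorafenib and -1.33 with both drugs in Hep3B, and at -0.52 with both in Huh7 (all called, log2, in the authors' deposited tables). With both drugs in Hep3B, the J-domain list, DNAJA1 included, had 2 of 7 higher and 3 lower in the authors' deposited table. Over all genes, 36.7% were higher and 35.4% lower there. In Huh7 with both drugs the list had 3 of 8 in each direction, beside 35.5% of all genes higher and 26.1% lower, in the authors' deposited table. TRiC is the cytosolic chaperonin that folds actin and tubulin. Its subunits all fell (8 of 8) with sorafenib in Hep3B and in the Huh7 group labelled GW3965 in the authors' deposited tables. Of all genes, 27.9% and 17.8% were lower in these comparisons. With both drugs, TRiC had 2 of 8 lower and 1 higher in Hep3B, beside 35.4% and 36.7% of all genes, in the authors' deposited table. In Huh7 it had 5 of 8 lower and 0 higher, beside 26.1% and 35.5% of all genes, in the authors' deposited table. Its list medians were -0.35 and -0.02 with sorafenib and with both drugs in Hep3B, against -0.39 and -0.17 labelled GW3965 and with both in Huh7, from the authors' deposited tables.

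A few heat-inducible or related genes of these lists had large rises where HSPA1A fell. ZFAND2A, an arsenite- and heat-inducible regulator of the proteasome, rose by 1.89 with sorafenib and 2.23 with both drugs in Hep3B, and by 1.26 with both in Huh7 (log2, in the authors' deposited tables). HSPB8, the small heat shock protein that pairs with BAG3, rose by 1.38 and 2.22 in the same Hep3B groups and by 2.34 with both drugs in Huh7, in the authors' deposited tables. UBB, a ubiquitin gene, fell by 1.23 and HSBP1, a binder of heat shock factor, fell by 1.17 with both drugs in Hep3B in the authors' deposited table. The list of heat shock factors and other heat-inducible genes had 4 of 10 higher and 4 lower with both drugs in Hep3B, and 5 of 10 higher and 3 lower in Huh7, in the authors' deposited tables. The counts in Hep3B are close to the 36.7% of all genes called higher and 35.4% lower there. In Huh7 with both drugs, 35.5% of all genes were called higher and 26.1% lower. Of the other HSP70 genes, 1 of 6 rose and 2 fell in Hep3B and 1 of 5 rose and 4 fell in Huh7 with both drugs in the authors' deposited tables. In the Huh7 group labelled sorafenib, 0 genes of these lists passed the authors' edgeR test, in the authors' deposited table. At most 2 genes of a list had an unadjusted p under 0.05 there. Only 3.32% of all genes were called in that group, so few calls in lists of this size say little about chaperone genes.

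The mitochondrial list, which holds partners of HSPD1 and HSPE1, had more genes higher than lower with both drugs in Hep3B. Its counts in Huh7 lay nearer the shares of all genes. Of 11 genes of mitochondrial folding and proteolysis with both drugs, 7 rose, 0 fell and 4 were not called in Hep3B, beside 36.7% of all genes higher and 35.4% lower, in the authors' deposited table. In Huh7, 5 rose, 2 fell and 4 were not called, beside 35.5% of all genes higher and 26.1% lower, in the authors' deposited table. HSPA9, the HSP70 of the matrix, rose by 1.05 in Hep3B and by 0.57 in Huh7 (log2, FDR 5.33e-51 and 1.14e-18) in the authors' deposited tables. GRPEL2, its nucleotide exchange factor, rose by 1.59 and 0.96 in the same tables (the authors' deposited tables, log2). Chaperones of the endoplasmic reticulum differed between the lines in direction, with 9 of 15 higher and 0 lower in Hep3B against 3 higher and 8 lower in Huh7 with both drugs in the authors' deposited tables, a difference not tested as a list. HSPA5 (BiP), the HSP70 of that compartment, rose by 1.00 in Hep3B (log2, FDR 3.31e-24) and stood at -0.22 in Huh7 (FDR 0.309) in the authors' deposited tables.

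**Figure D4:**
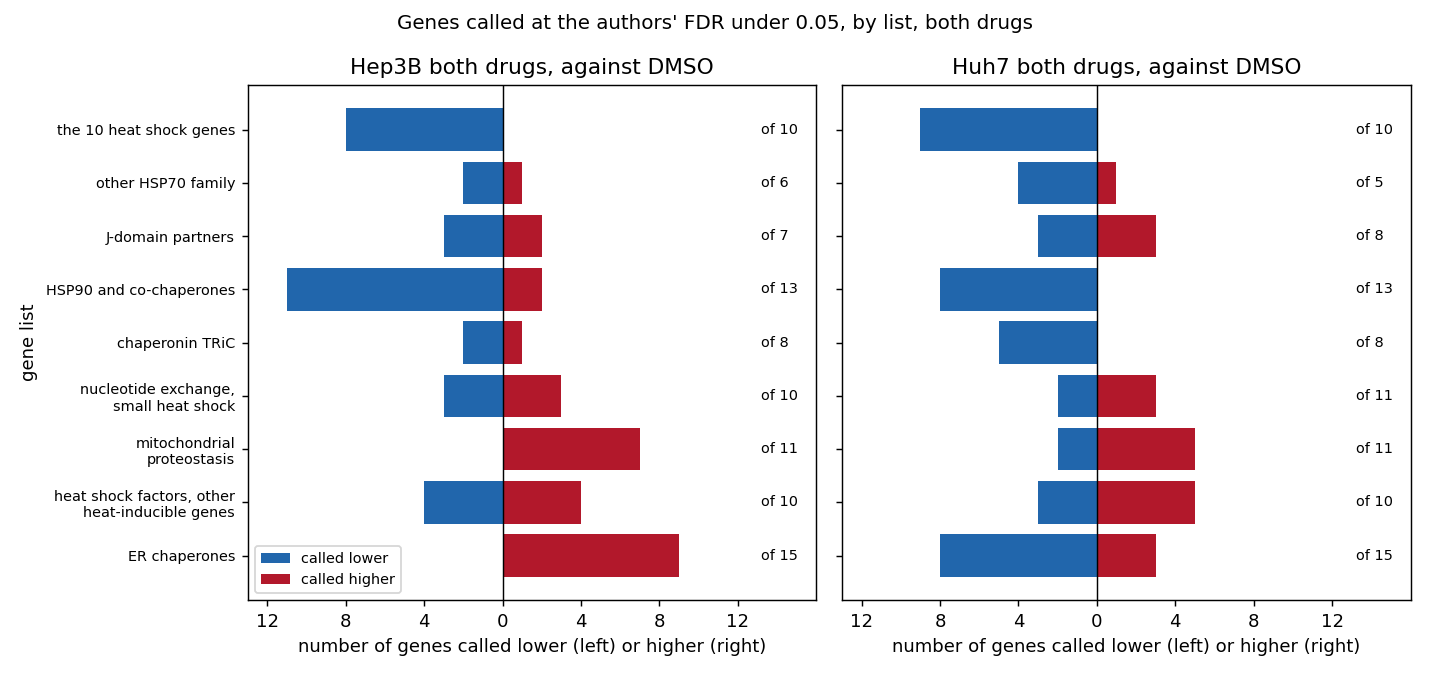
Number of genes called lower (bars to the left, blue) or higher (bars to the right, red) at an FDR under 0.05 (x axis, genes) in each list of chaperone genes (y axis) with both drugs against DMSO in Hep3B (left) and Huh7 (right), from the authors' deposited tables; the number at the right edge is how many genes of the list were at 2 CPM or more. The 10 heat shock genes have 8 and 9 lower and 0 higher, beside 35.4% and 26.1% of all genes lower. Mitochondrial genes have 7 and 5 of 11 higher and 0 and 2 lower, beside 36.7% and 35.5% of all genes higher.

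Finally, each pattern over the 6 tables was compared with those of 11443 genes at 2 CPM or more, by the Euclidean distance between their 6 log2 fold changes from the authors' deposited tables. HSPA1B was the gene nearest to HSPA1A (distance 0.23), followed by HEXIM1, an inhibitor of the elongation factor P-TEFb (0.30), and POLR2L, a small subunit shared by RNA polymerases (0.31). HEXIM1 stood at -1.90 and POLR2L at -1.81 with both drugs in Hep3B (log2, in the authors' deposited table). Among the other members, HSPE1 ranked at 100 and HSP90AA1 at 195 by distance from HSPA1A, while HSPD1 ranked at 5167. For HSPH1 the nearest were NPAS2, a clock transcription factor (distance 0.24), PRKD1, a protein kinase (0.30), and NCL, the nucleolar protein nucleolin (0.35), and DNAJB1 ranked at 16. For HSPD1 they were SPATA5 (0.13), NAA25, a subunit of an N-terminal acetyltransferase (0.16), and FARSA, a phenylalanyl-tRNA synthetase subunit (0.16). The 6 tables of this measure share DMSO libraries within a line, so nearness describes these tables only.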

How the data were processed

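RNA-seq of 70 libraries in 8 groups was used as 6 tables of comparisons. The authors used edgeR and the builds hg19 and GRCh37, per the submitters' processing notes. The aligner, its settings, strand use and the kind of test are details not given in the sources used here. The authors deposited, per the file headers, the mean CPM on a log2 scale and the log2 fold change of 32321 RefSeq transcripts, each with its unadjusted p-value, its FDR and how many libraries were above 0. All 13 transcripts of the 10 genes were nonzero in 70 libraries, and the 3 that were not representative differed from the representative one by at most 0.01 (log2). The deposited FDR equals a Benjamini-Hochberg adjustment over all transcripts. The mean column behaves as the log2 of a linear mean, from which group means were derived.

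The approximate test took as standard error the size of the fold change over the normal quantile that matches its p-value, replaced by the median of 1 of 20 expression bins where p exceeded 0.5 and never set below that median. Genes at 2 CPM or more were tested, and the script was tested on simulated data. The members, lists, rules and tests were chosen with earlier results of these data known. Named genes are the 10 members, HSF1, HSF2, HSP90AB1, HSPA5, HSPA9, the label checks, up to 3 called genes of each list with the largest changes per comparison, and the 3 genes nearest to HSPA1A, HSPH1 and HSPD1. TECR was named for its overlap with DNAJB1. Alternatives were other thresholds, filters, centring, transcripts and standard errors. Python 3.11.15, numpy 2.4.6, pandas 2.3.3, scipy 1.17.1 and matplotlib 3.10.9 were used. RefSeq promoter windows matched all 10 genes.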

Additional observations from a re-analysis of the deposited data

Results flagged for a closer look

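The results in this section differ between the 2 lines by the approximate test of the difference itself (Hep3B minus Huh7, log2, adjusted p under 0.05), computed from the authors' deposited tables. With both drugs the differences were -1.04 for HSPA1A, -1.06 for HSPA1B, -0.40 for DNAJB1, -0.72 for HSP90AA1, -0.66 for HSPA8 and 0.29 for HSPD1. The test called 44% of all genes with both drugs, 26.3% lower and 17.7% higher in Hep3B. The differences with both drugs do not depend on which Huh7 group received which drug.

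By the labels as written, sorafenib gave differences of -1.09 for HSPA1A, -1.25 for HSPA1B, -0.95 for DNAJB1, -1.05 for HSPH1, -0.86 for HSP90AA1, -0.85 for HSPA8, -0.77 for HSPE1 and -0.49 for BAG3. GW3965 by the labels gave 0.58 for DNAJB1, 0.72 for HSPH1, 0.77 for HSP90AA1, 0.71 for HSPA8, 0.51 for HSPD1 and 0.73 for HSPE1. Of all genes, 35.9% were called for sorafenib by the labels (18.2% lower, 17.7% higher) and 24.8% for GW3965 (14.7% higher, 10.1% lower). Both sets of differences rest on Huh7 labels that ABCG1 and DUSP6 go against. Taken the other way, Hep3B sorafenib against Huh7 labelled GW3965 gave 0 of 10 calls by the same test, beside 19.4% of all genes. There, 4 members had an unadjusted p under 0.05. Hep3B GW3965 against Huh7 labelled sorafenib gave 0 of 10 calls, near the 1.73% of all genes called, with 1 at an unadjusted p under 0.05. A missing call does not show that a member responded alike, and which drug each Huh7 group received was not tested.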

How the results depend on the processing

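No called value changed sign under any alternative, but only the settings with centring could change a value at all. Other thresholds, filters and standard errors alter calls alone, and the transcript with the highest mean CPM was the representative one for every member. A value without a call that changed sign was counted as unmoved. HSP90AA1 in the Huh7 group labelled sorafenib went from -0.02 to 0.01 with centring (log2, from the authors' deposited table). Of 69 counts of members, 63 stayed within 1.5 times the main count. Of single-gene values, 669 stayed on their side of the threshold, 16 lost their call and 5 gained one. With both drugs against the Huh7 group labelled sorafenib, 6 members were called at an adjusted p under 0.01 instead of 10. Against the group labelled GW3965, the 2 calls became 0 at an adjusted p under 0.01, 1 with no minimum CPM and 1 with 2 CPM required in each table. Hep3B sorafenib against Huh7 labelled GW3965 went from 0 to 1 call, DNAJB1, without the lower limit on the standard error, and to 1 with the difference centred on its all-gene median, an alternative chosen after seeing the data. Calls of BAG3 with GW3965 in Hep3B, DNAJB1 labelled GW3965 and HSPD1 with both drugs in Huh7 were lost at an FDR under 0.01, and the first 2 also under the approximate test on fold changes centred on the median of expressed genes, which changes the test and the centring together. That setting gave HSPB1 a call with both drugs in Huh7 (-0.24). The causes were not tested. No paired analysis was possible because the tables hold only comparisons of groups, without values of single libraries. For the same reason leaving out a library and other normalizations were not run, and depth per library is unknown.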

Other observations

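Of the 7 hepatocyte markers, 2 rose and 3 fell with sorafenib alone in Hep3B in the authors' deposited table, beside 23.6% of all genes higher and 27.9% lower. APOA1, the main protein of high-density lipoprotein, rose by 0.92 and FGB, a fibrinogen chain, by 0.77, while TTR fell by 0.77, AFP fell by 0.90 and APOB fell by 1.09 (log2, in the authors' deposited table). FGB was also the only hepatocyte marker of 7 called in the Huh7 group labelled sorafenib, where it fell by 0.60 (FDR 1.4e-08) in the authors' deposited table. Of all genes, 3.32% were called in that group. In Huh7 with both drugs the ER chaperone-related genes SDF2L1 fell by 1.43 and CRELD2 fell by 1.34, while HERPUD1 of the same compartment rose by 1.03, in the authors' deposited table.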
